A study of Mus musculus with 18 samples.

Results

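The 10 genes described here encode heat shock chaperones and 1 of their cofactors, out of 19057 gene symbols on the array. They were chosen by name after earlier results of these arrays had shown low Hspa1a, Hspa1b and Hspb1 in single-mutant progenitors, so the values of Ptch+/- against WT and of NdpKO against WT are a description without a test. Hspa1a, Hspa1b, Hspb1, Hspb8, Hsph1, Dnajb1 and Bag3 were taken as the 7 inducible genes, and Hspa8, Hsp90aa1 and Hspe1 as the 3 constitutive genes. Hsp90aa1 is itself the stress-inducible form of HSP90. Every probe was examined for Hspa1a and Hspa1b, and the brightest probe over all 18 arrays for the other genes.

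Expression was measured on 18 Illumina arrays, of which 16 held granule neuron progenitors (GNPs) from postnatal day 6 cerebella and 2 held medulloblastomas (MBs). The GNP groups were NdpKO;Ptch+/-, NdpKO, Ptch+/- and wild type (WT), with 4 arrays each, and the tumours were 1 NdpKO;Ptch+/- MB and 1 Ptch+/- MB. In NdpKO mice a lacZ cassette disrupts the X-linked gene of Norrin, a vascular signalling ligand, in every cell, and by the study's cross NdpKO and NdpKO;Ptch+/- mice are male, whereas controls can be of both sexes. Ptch+/- mice carry a single working allele of the hedgehog receptor gene Ptch1, also in every cell. WT and Ptch+/- mice were labelled C57Bl/6 and NdpKO mice as of mixed background. No strain label is given for 3 of the 4 NdpKO;Ptch+/- GNP arrays and for the NdpKO;Ptch+/- MB. The study states that it matched backgrounds by taking the controls of compound mutants from their own breeding cohort, which the labels do not show. By the labels, Ndp genotype and background cannot be told apart. GNPs were dissociated, purified on a Percoll gradient and pre-plated, whereas tumours were dissected from symptomatic mice although their labels also give postnatal day 6.

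Heat shock proteins are chaperones that hold, refold or hand on unfolded proteins. In resting cells heat shock factor 1 is kept inactive by chaperones, and unfolded protein releases it to bind heat shock elements, repeats of the unit GAA and its complement TTC, in front of the inducible genes. HSP70 proteins work in a cycle of ATP binding in which a J-domain protein loads the client and a nucleotide exchange factor releases it, small heat shock proteins hold clients without ATP, and HSP90 completes the folding of kinases and receptors. Inducible chaperone transcripts are also known to appear in freshly dissociated tissue.

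Values are on the log2 scale, where 1 unit is a doubling. A level of 5 lies close to the background of the scale, and 76.1% of the 45281 probes averaged below it in the GNPs. Where arrays of the lower group lay below 5, each of them was taken at 5 and the fold is a lower bound, and where all arrays of both groups lay below 5 no fold is given. Means are given ± SD and fitted differences ± SE.

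The labels of NdpKO;Ptch+/- replicate 2 disagreed, since its title gave the compound genotype and its source gave Ndp knockout. The first principal component held 43.6% of the variance of the 1500 most variable probes. On it NdpKO;Ptch+/- replicate 1 (16.58) lay with the Ptch+/- arrays and the other NdpKO arrays. NdpKO replicate 4 (-15.24) lay on the side of the WT arrays and the other NdpKO;Ptch+/- arrays. Each of them thus lay on the side of the other's group. Of 7 markers of granule neuron progenitors, the transcription factor genes Atoh1 and Pax6 lay below 5 on every GNP array and the others were measured, while the oligodendrocyte markers averaged 8.81 in NdpKO;Ptch+/-, 8.84 in NdpKO, 8.71 in Ptch+/- and 8.91 in WT GNPs. In bulk samples fewer cells of a type and less RNA per cell cannot be told apart.

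Inducible HSP70 was the chaperone with the widest range across the GNP genotypes. Hspa1a and Hspa1b encode nearly identical HSP70 proteins that are scarce in resting cells and made in large amounts after stress. Their RefSeq promoters (250 bases before to 50 after the start, assembly GRCm38.p6) were identical at 296 of 300 bases, or 98.7%. The same stretch with 1 inverted pair of heat shock units, shown in capitals 104 bases before each start, is printed for both genes because it shows how little separates these loci, which lie on chromosome 17 at chr17:34972233-34972280 and chr17:34959315-34959362, both on the minus strand.
Hspa1a: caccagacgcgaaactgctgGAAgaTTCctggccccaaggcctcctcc
Hspa1b: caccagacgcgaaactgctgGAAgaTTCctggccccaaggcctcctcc
Since the transcripts share sequence as well, signal could not be assigned to 1 gene with certainty.

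The brightest Hspa1a probe (ILMN_2829594) measured 6.72, 7.18, 6.94 and 7.05 in NdpKO;Ptch+/- GNPs, 5.25, 5.60, 6.84 and 7.64 in NdpKO GNPs, 7.47, 7.45, 7.96 and 7.86 in Ptch+/- GNPs and 9.93, 9.57, 8.96 and 9.44 in WT GNPs. All 4 WT arrays lay above the 12 mutant arrays, and the NdpKO arrays were the most scattered, with replicate 4 the highest of them. The means were 6.97 ± 0.19 in NdpKO;Ptch+/-, 6.33 ± 1.11 in NdpKO, 7.68 ± 0.26 in Ptch+/- and 9.48 ± 0.40 in WT GNPs (SD, n = 4 each). This was 3.46-fold lower in Ptch+/- and 8.84-fold lower in NdpKO than in WT GNPs. Among the mutants, NdpKO overlapped both of the other groups, whereas every NdpKO;Ptch+/- array lay below every Ptch+/- array.

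The second Hspa1a probe (ILMN_1245039) measured 4.17, 4.28, 4.18 and 4.62 in NdpKO;Ptch+/-, 4.15, 4.14, 4.15 and 4.27 in NdpKO and 4.26, 4.26, 4.45 and 4.35 in Ptch+/- GNPs, against 7.16, 6.62, 5.55 and 6.68 in WT GNPs. Here all mutants lay near background, and only a bound can be given, at least 2.84-fold lower in each mutant than in WT GNPs. The third Hspa1a probe (ILMN_1225328) stayed between 4.12 and 4.24 on every array and gave no level.

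The brighter Hspa1b probe (ILMN_2530672) measured 4.29, 4.22, 4.20 and 4.25 in NdpKO;Ptch+/-, 4.14, 4.16, 4.19 and 4.26 in NdpKO and 4.27, 4.34, 4.21 and 4.23 in Ptch+/- GNPs, against 7.30, 6.59, 4.62 and 7.17 in WT GNPs. WT replicate 3 was far below the other WT arrays and itself near background, and it was also the lowest WT array at both informative Hspa1a probes. The bound was at least 2.68-fold lower in each mutant than in WT GNPs, from a WT mean of 6.42 ± 1.24 (SD, n = 4), and at least 4.06-fold without WT replicate 3, where the WT mean was 7.02. The other Hspa1b probe (ILMN_2498263) remained below 5 on all 18 arrays.

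**Figure D1:**
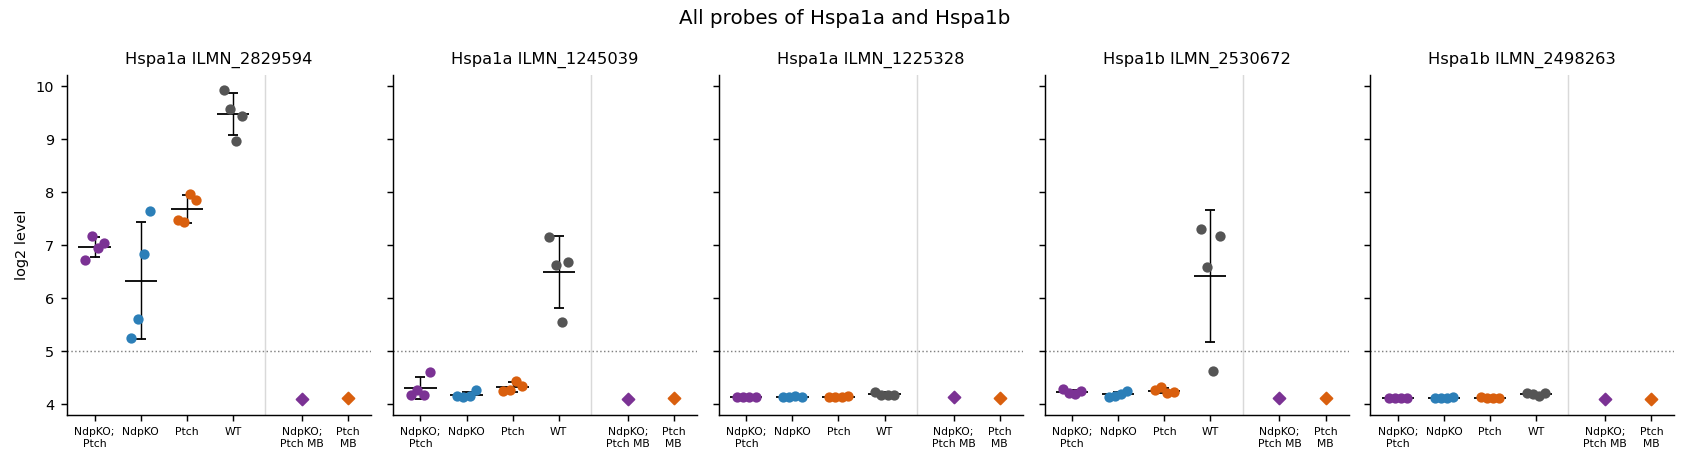
Log2 level of all 5 probes of Hspa1a and Hspa1b on each array, by genotype for GNPs (circles, with mean and SD bars of n = 4) and for single tumours (diamonds), with level 5 dotted. The brightest Hspa1a probe was graded across the mutants between 5.25 and 7.96, the second Hspa1a probe and the brighter Hspa1b probe were above 5 only in WT arrays, and the tumours lay near 4.1 at all 5 probes.

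The small heat shock protein genes Hspb1 and Hspb8 were lower in the single mutants than in WT GNPs and were the most scattered members within NdpKO;Ptch+/- GNPs. Hspb1 encodes HSP27, which holds unfolding proteins and binds the actin cytoskeleton, and HSPB8 works with BAG3 in clearing misfolded proteins. The Hspb1 promoter carries 2 inverted pairs of heat shock units, 117 and 97 bases before the start, in a stretch at chr5:135887782-135887849 on the plus strand.
Hspb1: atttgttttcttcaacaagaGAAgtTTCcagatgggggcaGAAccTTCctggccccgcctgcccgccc
The capitals mark the units of each pair.

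Hspb1 (ILMN_2706269) measured 4.37, 7.02, 5.37 and 6.48 in NdpKO;Ptch+/-, 4.25, 4.92, 4.51 and 6.10 in NdpKO, 4.84, 4.73, 4.81 and 5.29 in Ptch+/- and 8.34, 7.23, 7.56 and 7.67 in WT GNPs. Here the lowest WT array was above the highest mutant array, and within the mutants the low NdpKO;Ptch+/- replicate 1 and the high NdpKO replicate 4 are those named above for their place on the first component. The means were 5.81 ± 1.18 in NdpKO;Ptch+/-, 4.94 ± 0.82 in NdpKO and 4.92 ± 0.25 in Ptch+/- against 7.70 ± 0.47 in WT GNPs (SD, n = 4 each), and Hspb1 was at least 5.36-fold lower in NdpKO and at least 6.16-fold lower in Ptch+/- than in WT GNPs. In each of these mutant groups only 1 of 4 arrays lay above 5, so their means are not levels and were not compared with each other.

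Hspb8 (ILMN_2761205) measured 4.48, 5.96, 5.30 and 6.34 in NdpKO;Ptch+/-, 4.56, 4.86, 4.40 and 5.70 in NdpKO, 4.64, 4.61, 4.66 and 5.63 in Ptch+/- and 6.98, 6.92, 6.50 and 6.33 in WT GNPs. As for Hspb1, NdpKO;Ptch+/- replicate 1 was the lowest of its group and NdpKO replicate 4 the highest of its group, and NdpKO;Ptch+/- replicate 4 reached the lowest WT array. Hspb8 was at least 2.88-fold lower in Ptch+/- and at least 2.85-fold lower in NdpKO than in WT GNPs, with 1 of 4 arrays above 5 in each mutant group.

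Bag3, the nucleotide exchange factor that couples HSP70 to small heat shock proteins, was above 5 on every array. Bag3 (ILMN_1226195) measured 7.90, 8.23, 8.30 and 8.49 in NdpKO;Ptch+/-, 7.51, 7.97, 7.83 and 8.25 in NdpKO, 7.48, 7.75, 7.90 and 7.94 in Ptch+/- and 9.05, 8.79, 8.68 and 8.72 in WT GNPs. All 12 mutant arrays lay below the 4 WT arrays, and the mutant groups overlapped each other. It was 2.06-fold lower in Ptch+/- and 1.89-fold lower in NdpKO than in WT GNPs.

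Dnajb1 encodes HSP40, the J-domain partner of inducible HSP70, and Hsph1 encodes HSP110, a large exchange factor for it. Dnajb1 (ILMN_1240323) measured 11.28, 11.44, 11.24 and 11.38 in NdpKO;Ptch+/-, 11.44, 11.15, 11.39 and 11.34 in NdpKO, 11.31, 11.28, 11.38 and 11.28 in Ptch+/- and 11.92, 11.77, 11.35 and 11.58 in WT GNPs. Of the WT arrays, replicate 3 lay within the mutant range, and it was the lowest WT array for Hspa1b too. Dnajb1 was 1.27-fold lower in Ptch+/- and 1.25-fold lower in NdpKO than in WT GNPs. Hsph1 (ILMN_2716098) lay between 10.39 and 10.87 on all GNP arrays, and its group means were 10.53 ± 0.15 in NdpKO;Ptch+/-, 10.61 ± 0.10 in NdpKO, 10.79 ± 0.04 in Ptch+/- and 10.72 ± 0.13 in WT GNPs (SD, n = 4 each). For Hsph1 the WT arrays overlapped all 3 mutant groups.

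Among the constitutive genes, Hspa8 encodes HSC70, the HSP70 of resting cells, which also uncoats clathrin vesicles. Hspa8 (ILMN_1246458) measured 13.48, 13.03, 12.94 and 13.03 in NdpKO;Ptch+/-, 13.36, 13.24, 13.49 and 13.16 in NdpKO, 13.56, 13.42, 13.19 and 13.27 in Ptch+/- and 13.33, 13.25, 13.42 and 13.33 in WT GNPs. At this probe the groups overlapped throughout. At another Hspa8 probe (ILMN_2918479) every NdpKO;Ptch+/- array (12.69 to 12.85) lay below every Ptch+/- array (12.90 to 13.14), as for 2.65% of all probes. The other pairs of groups overlapped there. Hsp90aa1 (ILMN_2668319) ranged from 9.70 to 10.43 across the GNPs with all groups overlapping. Hspe1 encodes HSP10, the mitochondrial partner of HSP60. Hspe1 (ILMN_2960308) ranged from 7.90 to 9.03, and its WT arrays were above all NdpKO and all Ptch+/- arrays but not above NdpKO;Ptch+/- replicates 1 and 4. Of all probes, 2.57% were lower in NdpKO and 4.48% lower in Ptch+/- than in WT GNPs with no overlap.

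The promoters of Hspe1 and Hsph1 are printed because they alone among the members carried a run of 3 alternating heat shock units. Such a run consists of overlapping inverted pairs that share a unit. In Hspe1 it is part of a row of 4 units, with pairs that begin 89, 84 and 79 bases before the start. In Hsph1 it lies after the start and beyond the printed stretch, which holds the only pair in front of the start. The printed stretches lie at chr1:55088039-55088096 on the plus strand and chr5:149636342-149636389 on the minus strand.
Hspe1: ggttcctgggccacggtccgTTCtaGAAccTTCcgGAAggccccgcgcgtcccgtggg
Hsph1: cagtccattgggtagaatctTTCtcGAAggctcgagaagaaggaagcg
An inverted pair (GAANNTTC or TTCNNGAA, each its own complement, so that both strands are covered) was present in 7 of the 8 members with a RefSeq promoter, the exception being Dnajb1, and in 15.1% of all 32851 promoter windows of 300 bases. The run of 3 units was present in 0.603% of these windows. The pairs of Hspb8 and Bag3 lay only after the start. No promoter was listed for Hspa8 and Hsp90aa1.

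**Figure D2:**
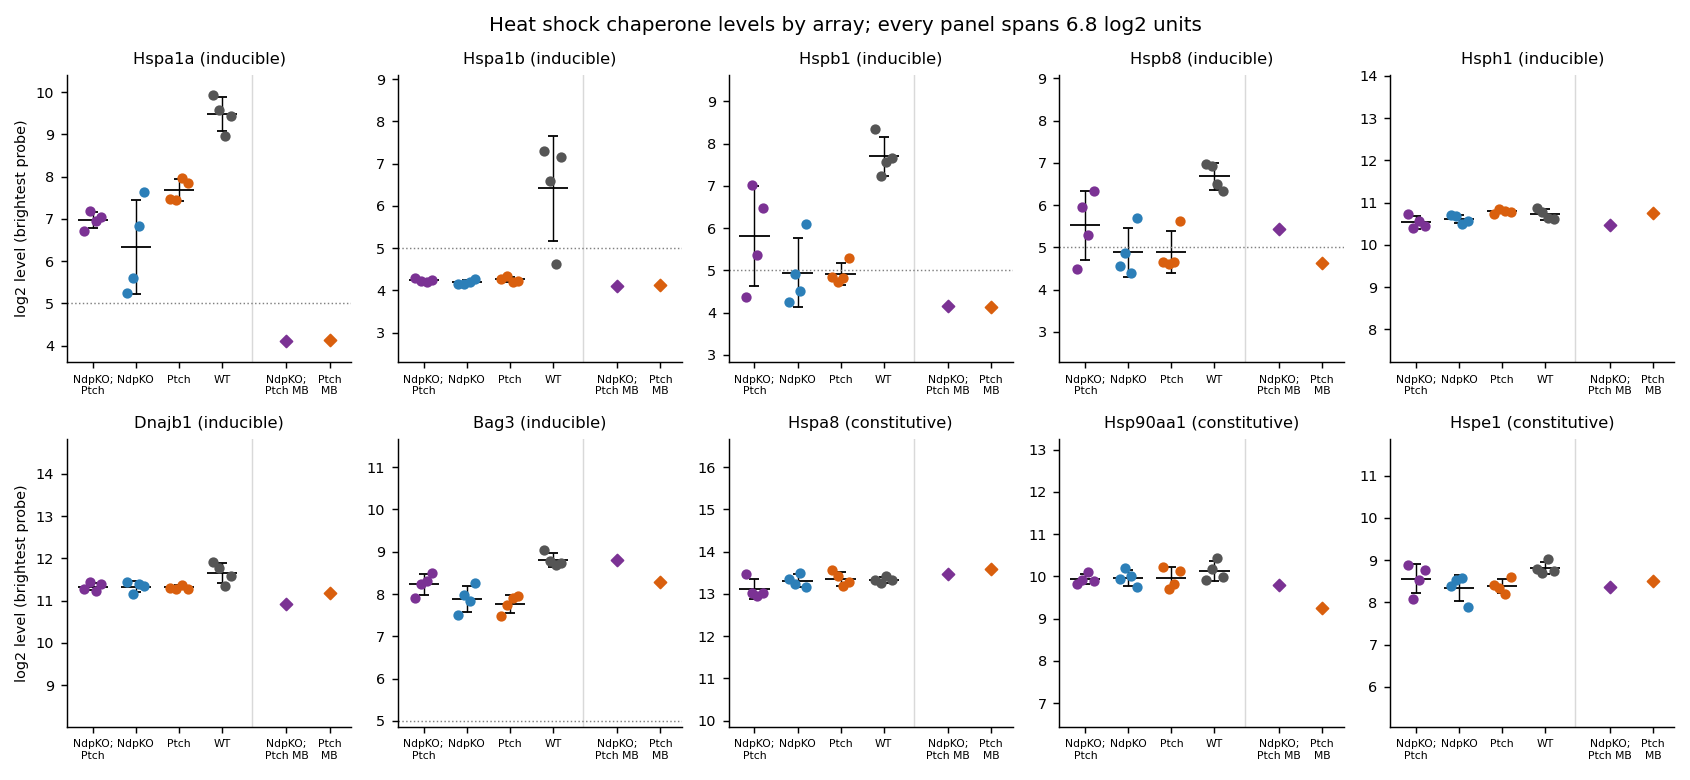
Log2 level of the brightest probe of each of the 10 genes on each array, by genotype for GNPs (circles, with mean and SD bars of n = 4) and for single tumours (diamonds), with level 5 dotted where it falls in the panel. Hspa1a, Hspa1b, Hspb1 and Bag3 have their 4 WT arrays above all 12 mutant arrays, as do 0.369% of all probes. Hspb8, Hsph1, Dnajb1 and the 3 constitutive genes do not. Since the genes were noticed for low values in mutants, nothing is read from this.

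Across the 4 GNP genotypes, the range of the group means was 0.26 to 3.14 for the 7 inducible genes with a median of 1.80 (1.51 with arrays below 5 taken at 5), and 0.19 to 0.47 for the 3 constitutive genes with a median of 0.24. The WT arrays lay above every mutant array for 4 of 7 inducible and 0 of 3 constitutive genes, and for 0.369% of all probes. Since the genes were noticed for low values in mutants, nothing is read from this count. Of the inducible genes with the widest ranges, Hspb1, Hspa1b and Hspb8 came close to background in mutants. Hspa1a, the widest, stayed at 5.25 or above on every GNP array at its brightest probe. The constitutive genes were bright on every array. The other probes of Hspb1 and Hspb8 and 1 of those of Hsp90aa1 lay near background throughout. The ranges above are those of the brightest probes. Among them the classes overlapped, with constitutive Hspe1 (0.47) above inducible Hsph1 (0.26) and Dnajb1 (0.34). The Hspa8 probe ILMN_1249586 had group means from 11.10 in NdpKO;Ptch+/- to 11.61 in Ptch+/- GNPs, with the groups overlapping.

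The counts of the contrasts that drew attention to these genes are given for completeness, with nothing read from them. In Ptch+/- against WT GNPs 3 of 10 members were called lower (Hspa1b, Hspb1 and Bag3), where 1.09% of all probes were called. In NdpKO against WT GNPs 2 were called lower (Hspa1a and Bag3), where 0.307% were. The median of the inducible genes was -1.79 in Ptch+/- and -1.80 in NdpKO against WT GNPs, or -1.51 in both with arrays below 5 taken at 5, and that of the constitutive genes was -0.16 in both, while the median of all probes at or above level 5 was 0.03 and 0.02. Both contrasts share the WT arrays. The count of 3 became 0 without Ptch+/- replicate 1, 1 without any other Ptch+/- array or without WT replicates 1, 2 or 4, and 5 without NdpKO replicate 4. The count of 2 became 4 without NdpKO replicate 4 or NdpKO;Ptch+/- replicate 1, and 1 without NdpKO replicates 1, 2 or 3, NdpKO;Ptch+/- replicate 3, Ptch+/- replicates 2, 3 or 4 or WT replicates 1, 2 or 4.

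The effect of Norrin loss on chaperones in Ptch1-heterozygous progenitors is the comparison of NdpKO;Ptch+/- with Ptch+/- GNPs. By limma 0 of 10 members were called, where 0.0155% of all probes were. Hspa1a differed by -0.71 ± 0.42 (limma adjusted p = 0.69) with no overlap between the groups, and Hsph1 by -0.26 ± 0.08 (adjusted p = 0.34), also with no overlap. Of all probes, 2.65% were lower and 2.30% higher in NdpKO;Ptch+/- GNPs with no overlap. The estimates were positive for the small heat shock genes and Bag3, with 0.89 ± 0.53 for Hspb1 (adjusted p = 0.69), 0.63 ± 0.40 for Hspb8 (adjusted p = 0.72) and 0.46 ± 0.16 for Bag3 (adjusted p = 0.44), and their groups overlapped. For Hspb1 and Hspb8, 3 of 4 Ptch+/- arrays lay below 5, so these sizes include background values. Hspa1b lay near background in both groups. At their brightest probes the 3 constitutive genes had differences from -0.24 to 0.18. The median was 0.02 for the inducible and -0.03 for the constitutive genes, against -0.02 for all probes at or above level 5.

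Heterozygosity for Ptch1 on top of Norrin loss is seen by setting NdpKO;Ptch+/- beside NdpKO GNPs. Again 0 of 10 members were called by limma, where 0.00442% of all probes were, and the groups overlapped for all 10 genes. The differences were 0.64 ± 0.42 for Hspa1a (limma adjusted p = 0.89), 0.86 ± 0.53 for Hspb1 (adjusted p = 0.88), 0.64 ± 0.40 for Hspb8 (adjusted p = 0.88) and 0.34 ± 0.16 for Bag3 (adjusted p = 0.87). For Hspb1 and Hspb8 only 1 of 4 NdpKO arrays lay above 5, so these sizes include background values. The Hspb1 difference ranged from 0.05 to 1.73 over the alternatives. At an unadjusted p below 0.05, 2 members (Hsph1 and Bag3) passed in the comparison with Ptch+/- GNPs and 0 in that with NdpKO GNPs. Over all probes 3927 (8.67%) and 2537 (5.60%) passed at that level.

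NdpKO;Ptch+/- GNPs had 0 members called by limma against WT GNPs, where 0.0508% of all probes were called. At an unadjusted p below 0.05, 7 of 10 members and 6.95% of all probes passed, and the estimate was negative for all 10 genes. Hspa1a was 5.67-fold, Hspb1 at least 3.32-fold and Bag3 1.49-fold lower in NdpKO;Ptch+/- than in WT GNPs. The median of the inducible genes was -1.16 (-1.04 with arrays below 5 taken at 5), and the arrays lay below all WT arrays for 4 of 10 members (Hspa1a, Hspa1b, Hspb1 and Bag3) and for 1.80% of all probes. In the interaction of Ndp and Ptch1 loss, 1 member (Bag3) was called, where 0.495% of all probes were. The interaction asks whether the compound mutant differs from the sum of the single mutants, and for the inducible genes its median was 2.21 (1.51 with arrays below 5 taken at 5). Both of these comparisons contain the WT arrays that drew attention to the genes, and nothing is read from them. The interaction count was 4 without NdpKO replicate 4, 3 without NdpKO;Ptch+/- replicate 1, 1 without WT replicates 3 or 4, and 0 without any 1 of the 12 other arrays.

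**Figure D3:**
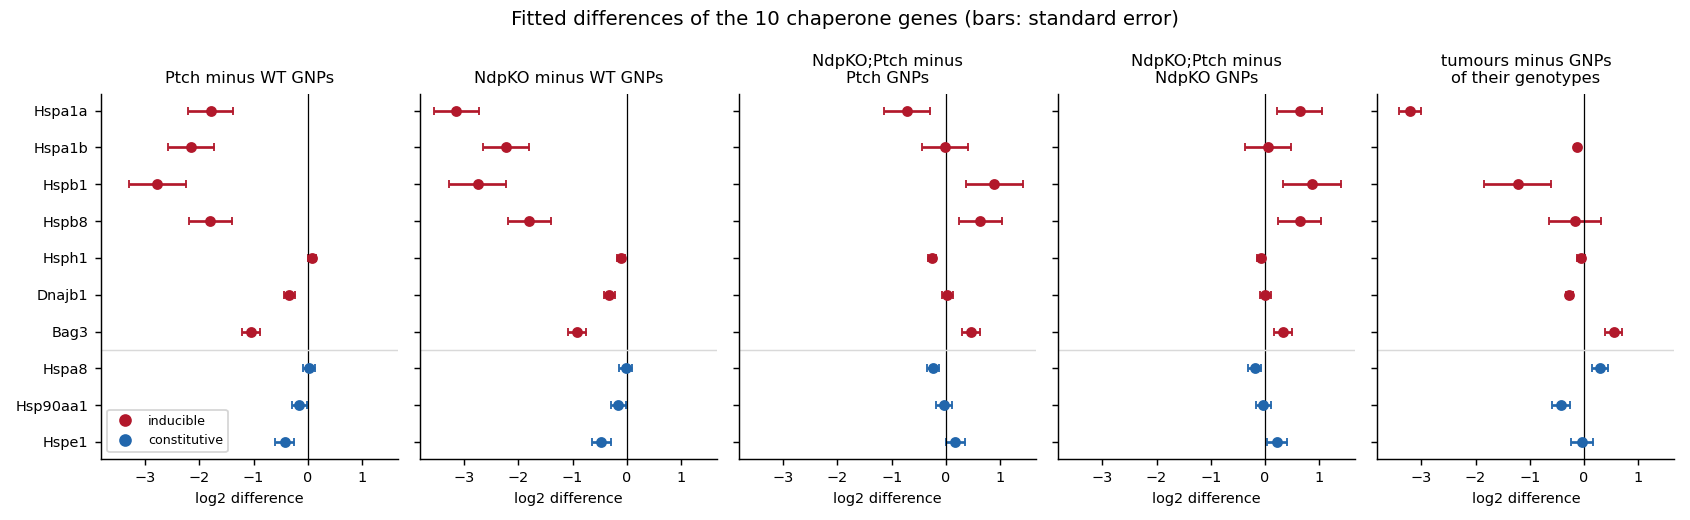
Fitted log2 difference with its standard error for the brightest probe of each gene in 5 comparisons, inducible genes in red above and constitutive genes in blue below. The sizes for Hspa1b, Hspb1 and Hspb8 include arrays near background. The differences from WT reach -3.14 for inducible genes and stay within 0.5 of 0 for constitutive genes, whereas the differences among the mutants lie between -0.71 and 0.89.

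The correlation between inducible genes from array to array depended on the pair. Across the 16 GNP arrays, which include the 4 genotypes, Pearson's r was 0.95 between Hspb1 and Hspb8, 0.93 between Hspb1 and Bag3 and 0.87 between Hspa1b and Dnajb1, against 0.79 between Hspb1 and Hspa1a and 0.08 between Hspa8 and Hspa1a. Inducible Hsph1 had r = -0.12 with Hspb1 and 0.29 with Hspa1a, and constitutive Hspe1 had 0.31 and 0.34 in the same order. The Hspa1b probe was above 5 on 3 arrays only, all WT, so its correlation rests mostly on them. All of these are descriptions over arrays that share their genotype differences. In NdpKO;Ptch+/- replicate 1 Hspb1 was 4.37 while Hspa1a was 6.72, and within NdpKO;Ptch+/- GNPs the range was 2.65 for Hspb1 and 0.46 for Hspa1a, or 1.65 and 0.24 without replicate 1. Within NdpKO GNPs it was the other way round, at 1.85 for Hspb1 and 2.39 for Hspa1a.

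**Figure D4:**
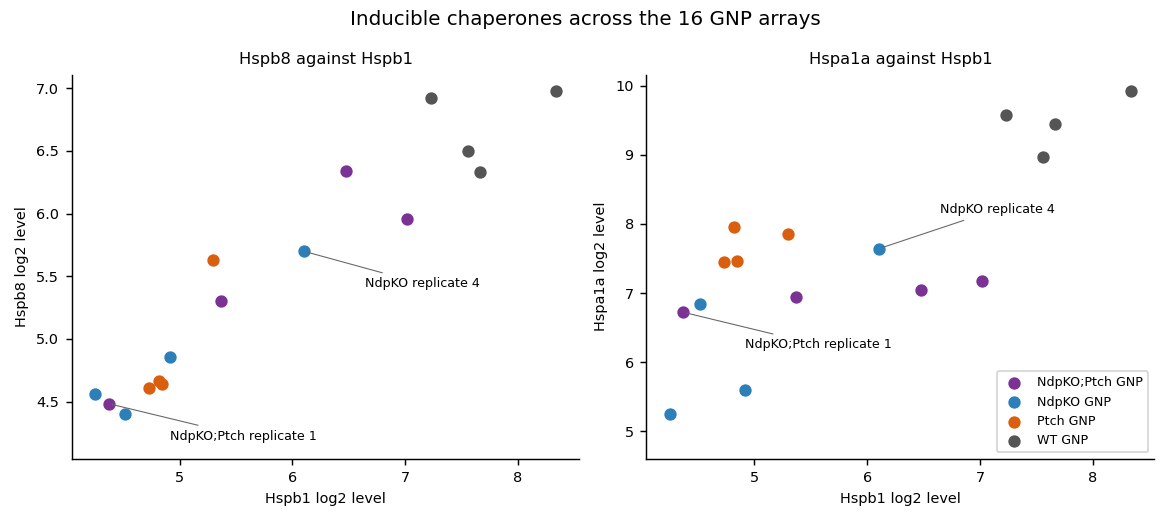
Log2 level of Hspb8 and of Hspa1a against that of Hspb1 on the 16 GNP arrays, coloured by genotype, naming NdpKO;Ptch+/- replicate 1 and NdpKO replicate 4. Hspb8 ran with Hspb1 across the 16 GNP arrays (Pearson's r = 0.95), which share their genotype differences. Within WT GNPs it did not, since the array lowest for Hspb1 was not the lowest for Hspb8. Hspa1a stayed between 6.72 and 7.18 in NdpKO;Ptch+/- GNPs while Hspb1 spanned 4.37 to 7.02.

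The genes whose values across the 16 GNP arrays were most like those of Hspa1a, out of 9462 probes with 1 symbol and a mean at or above 5, were the acute-phase inhibitor gene Serpina3n (r = 0.93), the astrocyte filament gene Gfap (r = 0.92), the mitochondrial sulfur transferase gene Tst (r = 0.90), Kcp (r = 0.89) and Fjx1 (r = 0.88). For Hspb1 they were Smpdl3a (r = 0.95), Lmo2 (r = 0.95), the lysosomal mannosidase gene Man2b1 (r = 0.94), the DNA damage checkpoint gene Hus1 (r = 0.94) and the syndecan gene Sdc4 (r = 0.94). Gfap averaged 7.90 in NdpKO;Ptch+/-, 7.61 in NdpKO and 8.61 in Ptch+/- against 9.77 in WT GNPs. The lists nearest to each gene shared no name.

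Markers of astrocytes, leukocytes, endothelium and oligodendrocytes were also highest on average in WT GNPs, and their part in the result was not tested. Astrocyte and Bergmann glia markers separated every WT array from every mutant array, and those of the other cells overlapped. The 11 astrocyte and Bergmann glia markers averaged 8.15 to 8.47 per array in NdpKO;Ptch+/-, 7.52 to 8.41 in NdpKO, 7.88 to 8.21 in Ptch+/- and 8.56 to 9.01 in WT GNPs, with Fabp7 and S100b below 5 on all GNP arrays. The 10 microglia and leukocyte markers averaged 4.91 to 5.40 in NdpKO;Ptch+/-, 4.78 to 5.25 in NdpKO, 4.96 to 5.40 in Ptch+/- and 5.37 to 5.94 in WT GNPs, with 6 of them, Csf1r and Cx3cr1 included, below 5 on all GNP arrays. The 10 endothelial markers averaged 6.62 to 7.89 in NdpKO;Ptch+/-, 6.43 to 7.34 in NdpKO, 6.45 to 7.23 in Ptch+/- and 7.09 to 8.23 in WT GNPs, with Kdr and Tie1 below 5 on all GNP arrays. In NdpKO;Ptch+/- against WT GNPs 6 of these 10 had a positive and 4 a negative difference, with a median of 0.02. In NdpKO and in Ptch+/- against WT GNPs 9 of 10 were negative. The erythroid markers averaged 8.63 in NdpKO;Ptch+/-, 8.51 in NdpKO and 8.60 in Ptch+/- against 8.59 in WT GNPs, and the progenitor markers 9.07, 9.19 and 9.28 against 8.98 in the same order. The inducible chaperones themselves averaged 7.11 to 7.78 in NdpKO;Ptch+/-, 6.84 to 7.69 in NdpKO, 7.25 to 7.58 in Ptch+/- and 8.33 to 9.20 in WT GNPs.

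Immediate-early genes, which are induced within minutes by many stimuli, did not follow the inducible chaperones among the GNPs as a list. The 14 genes averaged 8.26 ± 0.15 in NdpKO;Ptch+/-, 8.38 ± 0.18 in NdpKO and 8.59 ± 0.05 in Ptch+/- against 8.43 ± 0.12 in WT GNPs (SD, n = 4 each). Fos averaged 11.50, 11.70, 11.74 and 11.67 in the same order of groups. Atf3, which encodes a stress-induced transcription factor, differed from the list. It averaged 7.94 in NdpKO;Ptch+/-, 7.96 in NdpKO and 8.31 in Ptch+/- against 8.99 in WT GNPs. By limma it was called lower than in WT GNPs in each mutant group, with -1.05 ± 0.14 for NdpKO;Ptch+/- (adjusted p = 0.017), -1.03 ± 0.14 for NdpKO (adjusted p = 0.013) and -0.69 ± 0.14 for Ptch+/- (adjusted p = 0.035). In the same order 0.0508%, 0.307% and 1.09% of all probes were called. These comparisons share the WT arrays, and the lists were chosen with earlier results known, so nothing is read from the calls. No immediate-early gene was called in 4 of 24 alternatives for NdpKO;Ptch+/- (2 of them without its replicates 3 or 4), in 1 of 24 for NdpKO (only the groups compared) and in 8 of 24 for Ptch+/- (7 of them without any 1 Ptch+/- array or without WT replicates 1, 2 or 3), so the calls of Atf3 were lost there.

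**Figure D5:**
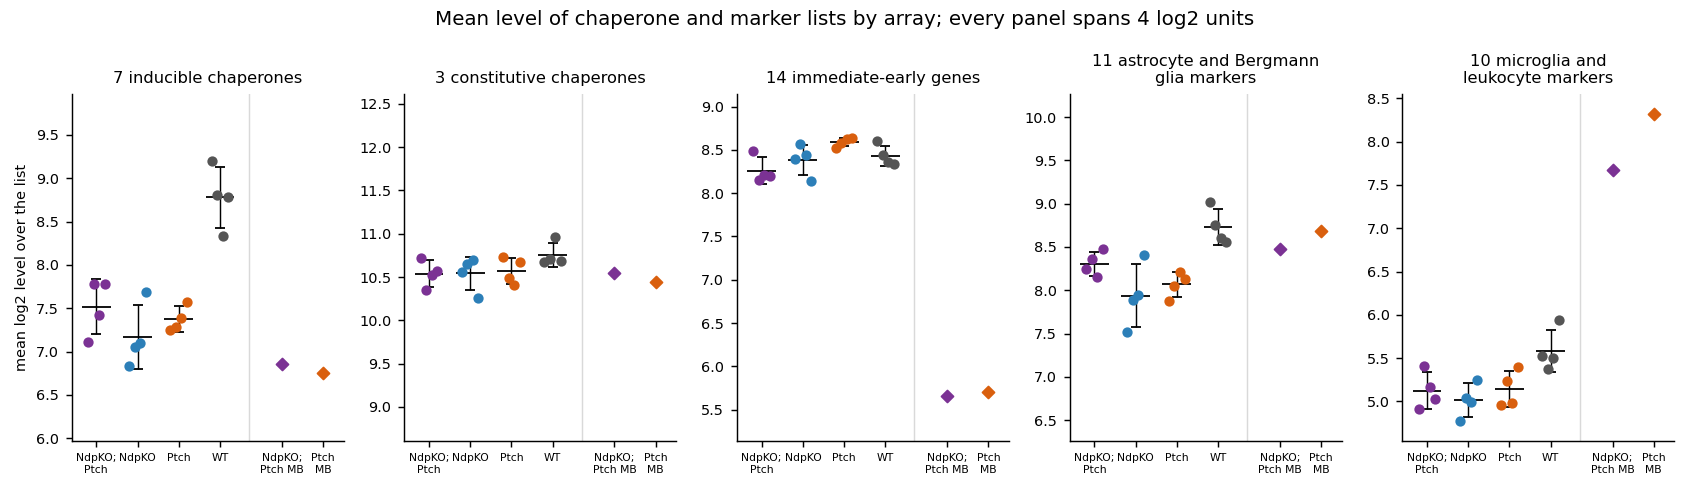
Mean log2 level over the genes of each list on each array, by genotype for GNPs (circles, with mean and SD bars of n = 4) and for single tumours (diamonds). Among the GNP groups the means of the inducible chaperones and of the glial and leukocyte markers are highest in WT, the leukocyte markers are higher still in the tumours (7.67 and 8.32), and the immediate-early genes lie near 5.7 in both tumours against 8.26 to 8.59 as group means in GNPs.

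The wider chaperone network had 0 of 73 measured genes called among the GNPs in the fit to all 16 arrays. Its 9 lists, which hold the heat shock factors, the other HSP70 and HSP110 genes, the other small heat shock genes, HSP90 with its cochaperones, the other J-domain genes, the other BAG and exchange factor genes, the TRiC chaperonin and the mitochondrial and endoplasmic reticulum chaperones, gave 0 calls by limma in each GNP comparison. With both arrays apart on the first component left out, 2 were called in Ptch+/- against WT, 3 in NdpKO against WT, 2 in NdpKO;Ptch+/- against Ptch+/-, 2 in NdpKO;Ptch+/- against NdpKO and 7 in the interaction. Leaving out NdpKO replicate 4 alone gave 2 in NdpKO against WT and 1 in the interaction, and leaving out NdpKO;Ptch+/- replicate 1 alone gave 1 in Ptch+/- against WT, 1 in NdpKO;Ptch+/- against Ptch+/- and 2 in the interaction. The dim-probe filter gave 2 in Ptch+/- against WT and 1 in the interaction, array weights gave 1 in each of these, and the other alternatives gave 0. At an unadjusted p below 0.05, 13 of the 73 genes passed in Ptch+/- against WT, where 13.2% of all probes did. In the other comparisons 7 passed in NdpKO against WT (10.9% of all probes), 8 in NdpKO;Ptch+/- against Ptch+/- (8.67%), 4 in NdpKO;Ptch+/- against NdpKO (5.60%) and 6 in NdpKO;Ptch+/- against WT GNPs (6.95%). Many were too dim to inform, since 6 of the 8 other HSP70 and HSP110 genes and 6 of the 7 other small heat shock genes lay below 5 on all GNP arrays. Hsf2, a second heat shock factor, averaged 5.06 in NdpKO;Ptch+/-, 4.68 in NdpKO, 4.93 in Ptch+/- and 5.06 in WT GNPs. These means lie close to background, so Hsf2 informs little. Hspd1, the HSP60 gene, was well above it, at 10.72, 10.84, 10.80 and 11.02 in the same order. Hspa5, the HSP70 of the endoplasmic reticulum, lay below 5 on all GNP arrays at its brightest probe, as did Cryab, a small heat shock gene of lens and glia, so neither was informative there. Hsf1 and Hsp90ab1 were not analysed here.

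In the tumours inducible HSP70 was at background. Set against the 8 GNP arrays of the same genotypes with genotype as a covariate, Hspa1a and Dnajb1 fell at their brightest probes. At theirs, the other members did not pass the test at a measurable level. Another probe of Hspa8 was called lower and is described below. Tissue and its preparation cannot be told apart in this comparison, in which 14.7% of all probes were called. The Hspa1a probe measured 4.10 in the NdpKO;Ptch+/- MB and 4.13 in the Ptch+/- MB, at least 3.92-fold lower in the NdpKO;Ptch+/- MB than in its GNPs and at least 6.43-fold lower in the Ptch+/- MB than in Ptch+/- GNPs (limma adjusted p = 3.1e-05). This call held under each of the 16 alternatives, with an adjusted p of up to 0.00036. Hspa1b was called too at -0.13, but all arrays of this fit lay near background and no fold is given. The count of 3 became 1 without the NdpKO;Ptch+/- MB or without Ptch+/- replicate 1. The median of the inducible genes was -0.17 and that of the constitutive genes -0.04, against -0.12 for all probes at or above level 5.

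Dnajb1 measured 10.93 in the NdpKO;Ptch+/- MB and 11.18 in the Ptch+/- MB, and fell by 0.27 ± 0.07 on the log2 scale (limma adjusted p = 0.041), or 1.21-fold. The call was lost in 12 of 16 alternatives. It was held without the Ptch+/- MB (adjusted p = 0.015) or NdpKO;Ptch+/- replicate 2 (adjusted p = 0.046), and without each other array the adjusted p lay between 0.053 and 0.41, the highest without the NdpKO;Ptch+/- MB, where the difference was -0.13. Each tumour lay below all 4 GNP arrays of its genotype.

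The other inducible genes in the tumours were not uniformly low. Hspb1 measured 4.16 in the NdpKO;Ptch+/- MB and 4.13 in the Ptch+/- MB, below every GNP array, at least 1.75-fold lower in the NdpKO;Ptch+/- MB than in its GNPs (both tumours, limma adjusted p = 0.28). Hspb8 measured 5.44 and 4.63 in the same order, within the GNP range (adjusted p = 0.89). Bag3 measured 8.80 and 8.28, at the level of WT GNPs for the NdpKO;Ptch+/- MB, with an estimate of 0.55 ± 0.16 that did not pass (adjusted p = 0.065) and that passed in 3 of 16 alternatives, 1 of them without NdpKO;Ptch+/- replicate 4 (adjusted p = 0.0495). Hsph1 measured 10.46 and 10.76 (-0.05 ± 0.08, adjusted p = 0.78).

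The constitutive genes were well above level 5 in the tumours. Hspa8 measured 13.48 in the NdpKO;Ptch+/- MB and 13.58 in the Ptch+/- MB at its brightest probe (0.29 ± 0.15, limma adjusted p = 0.29), whereas another Hspa8 probe (ILMN_2918479) fell by 0.68 ± 0.07 on the log2 scale (adjusted p = 0.00056), so the probes of this gene disagreed in direction. The third Hspa8 probe (ILMN_1249586) was 0.91 higher in the NdpKO;Ptch+/- MB than in its GNPs and 0.42 lower in the Ptch+/- MB than in Ptch+/- GNPs, on the log2 scale. Hsp90aa1 measured 9.80 and 9.26 in the same order (-0.42, not called), with the Ptch+/- MB below every GNP array and 1.63-fold below the mean of Ptch+/- GNPs. Hspe1 measured 8.37 and 8.50, inside the GNP range.

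Between the tumours, with 1 array each and no test, 0 of 10 members differed by 1 or more on the log2 scale, where 3.52% of all probes did. Hsp90aa1 was 0.54 and Bag3 0.52 higher in the NdpKO;Ptch+/- MB than in the Ptch+/- MB, and Hspb8 at least 1.36-fold higher, since it lay below 5 in the Ptch+/- MB. Hsph1 was 0.30, Dnajb1 0.25, Hspe1 0.13 and Hspa8 0.10 lower. Hspa1a, Hspa1b and Hspb1 were near background in both tumours and could not be compared.

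Other stress and chaperone genes also differed between the tumours and the GNPs of their genotypes. Of the 14 immediate-early genes 11 fell, where 14.7% of all probes were called and 6.06% were called lower. Fos measured 4.18 in the NdpKO;Ptch+/- MB and 4.26 in the Ptch+/- MB, at least 90.7-fold lower in the NdpKO;Ptch+/- MB and at least 107-fold lower in the Ptch+/- MB than in the GNPs of the same genotype (limma adjusted p = 2.3e-08). By the same bound and in the same order, Junb was at least 10.9-fold and 12.9-fold lower (adjusted p = 1.6e-06), Fosb at least 9.82-fold and 10.4-fold lower (adjusted p = 5.5e-06) and Atf3 at least 7.68-fold and 9.90-fold lower, all near background in both tumours. Over the 9 chaperone lists 15 of 73 measured genes were called, and 10 to 17 under the alternatives. With the dim-probe filter 15 were called, where 5327 of 11030 probes were, and nothing is read from these counts. Of 11 measured endoplasmic reticulum chaperone genes 4 fell, led by the calreticulin gene Calr (-2.02 ± 0.23, adjusted p = 0.00075), the collagen chaperone gene Serpinh1 (-1.79 ± 0.18, adjusted p = 0.00035) and Sdf2l1 (adjusted p = 0.016, below 5 in the NdpKO;Ptch+/- MB), and Hyou1 was called at 0.05 within background. Of 11 J-domain genes 4 fell, with Dnajb12 (-1.62) and Dnajb2 (-1.47) the lowest. Hspa4l, an HSP110 gene, measured 5.55 in the NdpKO;Ptch+/- MB and 5.01 in the Ptch+/- MB (adjusted p = 0.00018), and Cryab 5.09 and 4.59 (adjusted p = 0.0019), both called higher from below 5 on all GNP arrays and close to background in the tumours as well. The mitochondrial HSP90 gene Trap1 (0.34, adjusted p = 0.021) and the mitochondrial exchange factor gene Grpel1 (-0.28, adjusted p = 0.0032) passed among 7 mitochondrial chaperone genes. The HSP70 cofactor gene Hspbp1 (-0.68, adjusted p = 0.0013) was the gene that fell among 6 exchange factor genes, and the myosin chaperone gene Unc45a (-0.73, adjusted p = 0.0071) among 12 genes of HSP90 and its cochaperones. Of the 3 measured genes of heat shock factors and their binding protein 0 were called by limma, with 2 at an unadjusted p below 0.05. Of the 8 TRiC genes, 3 of them near background in all GNPs, 0 were called by limma, with 1 at an unadjusted p below 0.05, and their mean was 8.62 in the NdpKO;Ptch+/- MB and 8.65 in the Ptch+/- MB against 8.59 in NdpKO;Ptch+/- and 8.65 in Ptch+/- GNPs.

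Cell type markers differed widely in this comparison as well, and their part in the low HSP70 was not tested. Of 10 microglia and leukocyte markers 9 rose, where 8.61% of all probes were called higher. The list averaged 7.67 in the NdpKO;Ptch+/- MB and 8.32 in the Ptch+/- MB against 5.12 in NdpKO;Ptch+/- and 5.14 in Ptch+/- GNPs. The oligodendrocyte markers averaged 5.92 in the NdpKO;Ptch+/- MB and 6.04 in the Ptch+/- MB against 8.81 in NdpKO;Ptch+/- and 8.71 in Ptch+/- GNPs. The endothelial markers averaged 5.62 and 5.59 in these tumours against 7.35 and 6.89 in these GNPs, the erythroid markers 7.02 and 6.99 against 8.63 and 8.60, the astrocyte and Bergmann glia markers 8.48 and 8.69 against 8.31 and 8.07, and the progenitor markers 9.28 and 9.41 against 9.07 and 9.28.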

How the data were processed

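The deposited values are log2 intensities of 45281 probes on 18 Illumina MouseWG-6 v2 arrays, which the authors background-corrected, quantile-normalized and log-transformed with neqc of limma in R. Every array has the same median, 4.13, and a change common to all probes is therefore invisible here. No further normalization was applied, and every sample column of the table was matched to a sample by its name. Probe names came from the platform annotation, in which 34885 probes had 1 symbol, 18 several and 10378 none. The authors' removal of poorly matching probes was not applied here.

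With limma 3.58.1 under R 4.3.3, the 16 GNP arrays were fitted with a mean for each genotype, and tissue with genotype as a covariate to the 2 tumours and the 8 GNP arrays of their genotypes. Tests were two-sided, with p-values adjusted by Benjamini-Hochberg across all probes and calls made at an adjusted p below 0.05. The study's legend gives 4 animals per GNP group, and the labels do not tie arrays to animals. Each tumour genotype has 1 array, so the tumour fit takes its spread mostly from the GNPs. Precision is limited by how many arrays there are. Of the members, Hspa1a and Hspa1b were shown by every probe and the rest by the brightest, and the counts use the brightest for all. All 10 are named whatever their values, as are Hsf1, Hsf2, Hsp90ab1, Hspd1, Hspa5, Cryab, Fos and Atf3, with at most the 3 largest called differences of each wider list in each comparison and the 5 genes most like Hspa1a and Hspb1. Some marker genes are named beyond that rule to say which lay near background, and these were chosen after their values were seen. The members, the lists and level 5 were chosen with earlier results of these data known. The lists covered 9 groups of chaperones and their factors, immediate-early genes and markers of endothelial, astrocyte and Bergmann glia, microglia and leukocyte, oligodendrocyte, erythroid and granule neuron progenitor cells. Promoters came from RefSeq (GRCm38.p6). The fit was tested on simulated data. Alternatives were the replicate block, an intensity-dependent prior, a filter on dim probes, cyclic loess, array weights, another group for the array of disagreeing labels, only the groups compared, other probe and gene class choices, and each array left out in turn. Leaving out both arrays apart on the first component, and taking arrays below 5 at 5, were added after the data were seen.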

Additional observations from a re-analysis of the deposited data

Results flagged for a closer look

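Among 52 groups of 4 GNP arrays, 1 array stood apart from the others of its group in 4, where chance flags about 1 in 20 groups. Hspb8 measured 5.63 in Ptch+/- replicate 4. Hspa8 measured 13.48 in NdpKO;Ptch+/- replicate 1, an array that also stood apart on the first principal component. The second Hspa1a probe measured 4.27 in NdpKO replicate 4 and the third measured 4.24 in WT replicate 1, both within background. The interaction of Ndp and Ptch1 loss passed for the second Hspa1a probe, at 2.31 on the log2 scale (limma adjusted p = 0.023), and for Bag3, at 1.38 (adjusted p = 0.035). For the Hspa1a probe the value is the height of the WT arrays above background, since it lay below level 5 in all 3 mutant groups, and it is not a measured difference between effects of Ndp loss. It was called in 15 of 23 alternatives and Bag3 in 9 of 23, and both rest on the WT arrays for which these genes were noticed.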

How the results depend on the processing

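No difference changed sign past the threshold. Depth of signal limits Hspa1b, whose probe the dim-probe filter removed, and Hspb1 and Hspb8, which lay near level 5 in the mutants. For Ptch+/- against WT GNPs the 3 members called became 5 with the intensity-dependent prior, 5 with array weights and 5 with both arrays apart on the first component left out, and 0 to 5 with 1 array left out, while the inducible median of -1.79 was -1.04 with the mean of all probes of a gene and -1.86 to -1.64 with 1 array left out. For NdpKO against WT GNPs the 2 called became 4 with that prior, 4 with the dim-probe filter, 1 when NdpKO took in the array whose labels disagree, 0 with only the groups compared, 5 without both arrays apart and 1 to 4 with 1 array left out, and the median of -1.80 was -0.93 with all probes and -2.07 to -1.64 with 1 array left out. For NdpKO;Ptch+/- against WT GNPs the 0 called became 1 with the prior, 1 with the filter, 1 without both arrays apart, 2 with any probe of a gene and 0 to 1 with 1 array left out (1 without NdpKO replicates 1 or 4 or WT replicate 3), and the median was -1.44 to -0.82 with 1 array left out. For the interaction the 1 called became 2 with the prior, 4 with the filter, 4 with array weights, 0 with the other group for the array of disagreeing labels, 4 without both arrays apart, 2 with any probe and 0 to 4 with 1 array left out, and the median of 2.21 was 1.25 with all probes, 1.51 with arrays below 5 taken at 5 and 1.92 to 2.49 with 1 array left out. In NdpKO;Ptch+/- GNPs no member was called against Ptch+/- or NdpKO GNPs under any alternative, with medians of -0.01 to 0.05 and 0.21 to 0.46 with 1 array left out. For the tumours the 3 called became 1 with array weights and 1 to 2 with 1 array left out (1 without Ptch+/- replicate 1 or the NdpKO;Ptch+/- MB), and the median was -0.27 to -0.13. Replicate numbers did not pair the arrays. Same-numbered arrays had a median correlation of -0.041 over 24 pairs, 4 of 16 arrays correlated best with their own number, and with replicate number as a block the 2 members called in NdpKO against WT GNPs became 1. Over all probes the number called in each comparison also moved, from 494 to between 116 and 1458 in Ptch+/- against WT, from 139 to between 4 and 1070 in NdpKO against WT, from 7 to between 1 and 922 in NdpKO;Ptch+/- against Ptch+/-, from 2 to between 0 and 656 in NdpKO;Ptch+/- against NdpKO, from 23 to between 3 and 76 in NdpKO;Ptch+/- against WT, from 224 to between 2 and 2577 in the interaction and from 6643 to between 4378 and 7032 in the tumours. The causes were not tested.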
